A study of Sus scrofa with 24 samples.

Results

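The stretch by IL-1 interaction in outer zone meniscus cells compares 2 stretch effects gene by gene: the effect of cyclic stretch in the presence of IL-1α minus its effect in the absence of IL-1α. Its members were the genes that reached 10 reads in 1 or more libraries, 13653 of the 25880 genes in the count table, measured in the 12 outer zone libraries among 24 libraries of the series. Of these genes, 13403 reached 10 reads in an outer zone library, and 250 passed only through inner zone libraries. The libraries are stranded mRNA libraries of cultured pig cells from the medial meniscus, a crescent of fibrocartilage in the knee.

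The 12 libraries form 4 groups of 3 wells, numbered 4, 5 and 6 in the labels: stretch with IL-1α, IL-1α alone, stretch alone, and neither. Stretched wells received 5% cyclic tension as a sine wave at 0.5 Hz for 4 h, and IL-1α (here IL-1) was given at 0.1 ng/mL when stretch began. What the 4 groups share is the source and the culture. The cells were digested from the outer part of menisci of skeletally mature female pigs, frozen, pooled over at least 3 menisci and expanded for a passage. They were then seeded at 250000 per well on flexible plates coated with type I collagen, about 40 h before treatment. Because every well drew on the pooled cells, p-values measure the spread between wells and not the spread between animals. In the sample titles each treatment has a code of its own, shared by both zones, so whatever that code marks cannot be told apart from the treatment. RNA was taken as the 4 h of stretch ended, and in such bulk libraries fewer cells of a type and less RNA per cell cannot be told apart.

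Outer zone libraries held 27633199 to 35284474 reads, and replicates had Spearman correlations of 0.997 or more across genes, which are not independent replicates. Scaling factors (TMM) were 0.881 to 0.930 with IL-1 and 1.04 to 1.09 without it. Fibroblast genes were abundant in every group: COL1A1, the main collagen of fibrous tissue, had group means of 54102 to 59244 CPM (counts per 1e6 reads, scaled by these factors), while COL2A1, the collagen of cartilage, had 5.28 to 6.37 CPM. Cartilage genes were not absent, since ACAN had group means of 171 to 290 CPM and SOX9 10.6 to 20.1 CPM. The 11 chondrocyte-like markers tested summed to 946 to 1239 CPM in single wells. Several defining markers of other cell types were near 0, with at most 1 read of PTPRC and 3 of CD3E (leukocytes), 6 of CDH5 and 8 of VWF (endothelium) and 5 of ADIPOQ (adipocytes) per group of 3 libraries. Others were detected: CD14, a monocyte marker, had group means of 21.4 to 40.0 CPM and was higher with IL-1, and PECAM1, an endothelial marker, had 7.02 to 9.05 CPM. None of 21 fibroblast-like, 7 leukocyte, 4 endothelial or 3 adipocyte markers had a called interaction. Of the fibroblast-like markers 2 were called without stretched well 5 without IL-1, 2 without unstretched IL-1 well 6 and 1 without stretched IL-1 well 6.

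IL-1 signals through its receptor and the IRAK kinases to NF-κB and the MAP kinases, which switch on cytokines, chemokines and proteases of the inflamed joint. An interferon response often follows, in which STAT and IRF proteins bind interferon-stimulated response elements (ISREs) in the promoters of antiviral and antigen presentation genes. Stretch is sensed through integrins, the actin cytoskeleton and ion channels, and reaches the nucleus partly through SRF, which binds CArG boxes.

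The promoters below are shown because they carry letters of these factors in genes that the results turn on. They come from the RefSeq annotation of Sscrofa11.1 and run 5′ to 3′ along the strand of the gene. In TAP1 (chr7:25071960-25072025, minus strand), GBP2 (chr4:127408700-127408772, minus strand) and EPSTI1 (chr11:24116967-24117020, plus strand), all with a negative interaction, capitals mark ISRE letters on either strand, which are GAAA, any 2 bases and GAAA again. In DUSP5 (chr14:120906221-120906320, plus strand), with a positive interaction, they mark 2 adjacent CArG boxes, each with only A or T between CC and GG. In BCL3 (chr6:51255900-51255989, plus strand), also with a positive interaction, they mark NF-κB letters, which are GGGAA, any 3 bases and CC.
TAP1: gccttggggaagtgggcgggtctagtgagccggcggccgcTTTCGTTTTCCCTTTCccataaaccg
GBP2: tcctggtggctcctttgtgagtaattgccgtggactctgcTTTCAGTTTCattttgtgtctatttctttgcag
EPSTI1: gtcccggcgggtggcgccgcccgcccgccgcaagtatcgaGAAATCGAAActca
DUSP5: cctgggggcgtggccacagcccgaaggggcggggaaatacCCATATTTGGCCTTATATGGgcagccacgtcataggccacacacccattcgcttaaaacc
BCL3: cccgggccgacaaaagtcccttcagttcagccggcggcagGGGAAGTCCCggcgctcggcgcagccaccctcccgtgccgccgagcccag

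The 16 capital bases of TAP1, chr7:25071970-25071985, are 2 overlapping ISRE matches, and the same bases on the plus strand give the 2 matches of PSMB9, its divergent neighbour. Promoters were read from 250 bases before to 50 after the RefSeq start, for 11763 of the tested genes. ISRE letters lay in 5.64% of promoters of genes with a lower interaction (55 of 975), in 1.78% of those with a higher one (12 of 674) and in 2.95% of all (347 of 11763). CArG boxes lay in 1.64% of the lower (16 of 975), 2.82% of the higher (19 of 674) and 1.32% of all promoters (155 of 11763). The NF-κB letters were found in 10.1% of the lower, 7.86% of the higher and 9.84% of all promoters. Both strands were searched, and a base could count for more than 1 motif. Among listed genes, ISRE letters were in 23 of 44 promoters of interferon-stimulated genes (52.3%) and in 0 of 36 promoters of SRF and actin genes, whereas CArG boxes were in 1 of 44 and 9 of 36 (2.27% and 25%). In the MAPK feedback list 1 of 21 promoters held a CArG box (4.76%), the one of DUSP5 shown here. These shares describe letters and were not tested.

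Stretch acted by a different factor with IL-1 than without it in 1796 of 13653 genes (13.2%) at an adjusted p under 0.05 (edgeR quasi-likelihood F-test, two-sided, Benjamini-Hochberg), with no bound on the fold. The interaction was higher, meaning that stretch moved the gene further up or less far down with IL-1, in 737 genes (5.4% of those tested). It was lower in 1059 genes (7.76%). Stretch itself passed the same test in 3849 genes with IL-1 (28.2%, of which 13.1% higher and 15.1% lower) and in 2904 without it (21.3%, of which 11% higher and 10.3% lower). Stretched and unstretched wells did not overlap in CPM in 38.5% of genes with IL-1 and in 35.8% without it, which is the background for each statement on overlap. Most interactions were small: the median was 0.41 on the log2 scale among the higher and -0.44 among the lower, 479 and 610 of them were under 0.5 in size, and 61 and 152 were over 1 (0.447% and 1.11% of genes, 1.56% in all). Genes with at least 1 CPM in all 4 groups, 10986 of the 13653 tested, made up 94.3% of the calls. Of these 15.4% were called, against 3.86% of the genes below 1 CPM in a group. The balance of directions depends on scaling: with upper-quartile factors, which shift the median of all genes by 0.05, the calls were 1081 higher and 823 lower, or 56.8% higher, against 41.0% with TMM.

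The 2 stretch effects behind each call fell into a few patterns. Of the 1059 lower interactions, 561 (53%) belonged to genes that stretch lowered with IL-1 and for which it passed no test without it. Another 116 fell with stretch in both conditions and fell further with IL-1, 199 (18.8%) rose with stretch only without IL-1, 44 rose in both conditions and less so with IL-1, and 96 fell with IL-1 and rose without it. Of the 737 higher interactions, 296 (40.2%) rose with stretch only in IL-1, 223 (30.3%) fell with stretch only without IL-1, and 95 rose with IL-1 and fell without it. In 41 of the higher genes stretch lowered expression in both conditions, less so with IL-1, and in 39 it raised it in both, more so with IL-1. Passing in only 1 condition is no test of a difference, which the interaction itself supplies. For 43 genes of each direction neither effect passed alone.

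**Figure D1:**
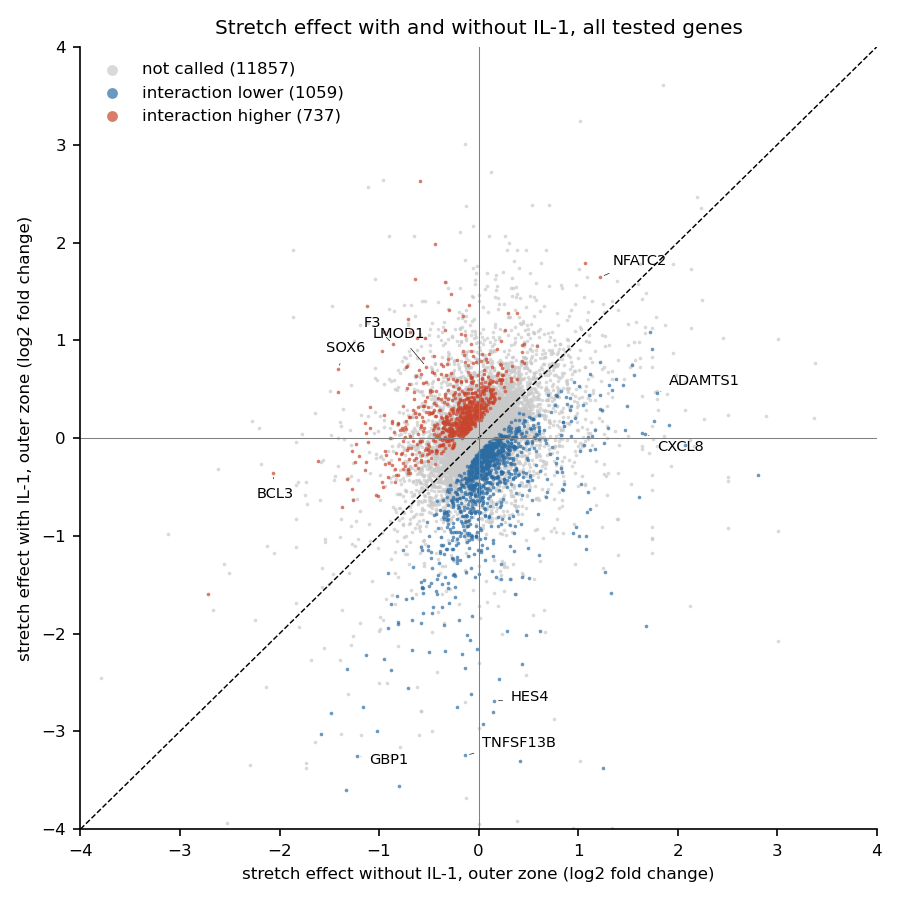
Stretch effect with IL-1 (y axis, log2 fold change) against stretch effect without IL-1 (x axis, log2 fold change) for each tested gene in outer zone cells, with called interactions in colour and equal effects on the dashed line; 8 genes lie outside the axes. The 1059 lower interactions lie below the line, GBP1 and TNFSF13B well below it, and the 737 higher ones lie above it.

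Among interferon pathway genes most listed targets had a lower interaction, while most signalling factors were not called. The list of interferon signalling factors also held receptors of the IL-6 family, IL6R among them. Of its 29 genes, 8 were lower, 1 was higher and 20 were not called, beside 7.76% lower and 5.4% higher among all genes. Their median was -0.17, against 0.00 over all tested genes. IRF1, an early transcription factor of the response (chromosome 2, 134776122 to 134783646), stood at 136, 111 and 84.1 CPM in stretched IL-1 wells and 339.9, 339 and 397 CPM in unstretched IL-1 wells. Without IL-1 it stood at 16.2, 17.3 and 16.8 CPM in stretched and 28.6, 33.2 and 30.8 CPM in unstretched wells. So the groups did not overlap in either condition, and the interaction was -0.82 ± 0.20 on the log2 scale (adjusted p = 0.0105). A fit of the 12 outer zone libraries alone gave -0.83 ± 0.24 with an adjusted p of 0.0659. STAT2, a subunit of the ISRE-binding complex, had 44.2, 41 and 39.4 CPM with stretch and IL-1 and 88.4, 80.4 and 92.9 CPM with IL-1 alone, against 42.2, 44.4 and 42 CPM in stretched and 48.7, 50.8 and 48.6 CPM in unstretched wells without IL-1. The stretched IL-1 wells overlapped the stretched wells without IL-1 and lay below the untreated ones (interaction -0.87 ± 0.10, adjusted p = 2.67e-07). IRF7, the amplifier of type I interferon, had an interaction of -1.36 ± 0.24, and IRF2, a relative of IRF1, one of -1.04 ± 0.20. The listed gene that went the other way was IL6R, a receptor of IL-6 and not of interferon. It stood at 5.29, 3.65 and 4.06 CPM in stretched and 4.96, 4.36 and 3.33 CPM in unstretched IL-1 wells, which overlap, and at 2.37, 2.53 and 2.35 CPM in stretched and 5.08, 5.5 and 5.31 CPM in unstretched wells without IL-1 (1.18 ± 0.21).

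Targets followed with larger sizes. Of 46 interferon-stimulated genes, 30 had a lower interaction and 0 a higher one, beside 7.76% lower among all genes, with a median of -0.99. With IL-1, stretch lowered 45 of the 46 (median -1.61), beside 15.1% of all genes. Without IL-1 it lowered 30 (median -0.57), beside 10.3% of all genes, with none raised in either condition. GBP1, an interferon-induced GTPase (chromosome 4, 127425699 to 127442132), stood at 28.3, 16 and 13.8 CPM in stretched and 178, 172 and 203 CPM in unstretched IL-1 wells. Without IL-1 it stood at 4.81, 5.84 and 5.17 CPM in stretched and 10.5, 13.8 and 12.6 CPM in unstretched wells, so that stretch lowered it in both conditions, with log2 effects of -3.25 and -1.22 (interaction -2.03 ± 0.37, adjusted p = 0.00113). GBP2, its neighbour and one of the promoters shown, had 5.08, 3.58 and 3.25 CPM in stretched and 21.1, 21.8 and 27.3 CPM in unstretched IL-1 wells (-1.85 ± 0.29). EPSTI1, an interferon-induced gene whose promoter is shown, had an interaction of -1.49 ± 0.25. CXCL10, the interferon-induced chemokine, was lowered by stretch with IL-1 (-3.34 ± 0.25) but had only 5 to 13 reads in stretched and 34 to 51 in unstretched wells without IL-1, and its interaction of -1.05 ± 1.38 did not pass (adjusted p = 0.711). CGAS, the cytosolic DNA sensor upstream of interferon production, stood at 8.15, 6.46 and 4.8 CPM in stretched and 23.7, 26.6 and 28.2 CPM in unstretched IL-1 wells, against 4.11, 3.37 and 2.82 CPM in stretched and 3.81, 3.97 and 3.33 CPM in unstretched wells without IL-1, where the groups overlap (-1.90 ± 0.23, adjusted p = 1.67e-06).

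The summed level of the 46 interferon-stimulated genes shows how far single wells differed. It was 4816, 3508 and 3203 CPM in stretched IL-1 wells and 11893, 11409 and 13119 CPM in unstretched IL-1 wells, and 1333, 1654 and 1411 CPM in stretched and 1949, 2179 and 2120 CPM in unstretched wells without IL-1. Well 4 was the highest of the stretched IL-1 wells and well 5 the highest of the stretched wells without IL-1. The count of 30 lower members moved between 19 and 37 when wells were left out in turn, with 19 without stretched well 5 without IL-1 and 37 without stretched IL-1 well 4; no member became higher.

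MHC class I antigen processing moved with them: 13 of 16 members were lower and 0 higher, with a median of -0.51, beside 7.76% lower among all genes. NLRC5, the transactivator of MHC class I genes, stood at 3.38, 2.08 and 1.83 CPM in stretched and 19.3, 19.1 and 19.9 CPM in unstretched IL-1 wells, against 0.633, 0.873 and 1.23 CPM in stretched and 1.64, 2.51 and 1.53 CPM in unstretched wells without IL-1 (-1.98 ± 0.47, adjusted p = 0.00652). That call was lost without stretched well 6 without IL-1, at -1.68 ± 0.56 and an adjusted p of 0.0640. TAP1, the peptide transporter, had 100.2, 74.9 and 69 CPM in stretched and 269, 257 and 285 CPM in unstretched IL-1 wells (-1.27 ± 0.17, adjusted p = 4.15e-05). PSMB9, an immunoproteasome subunit that shares the ISRE letters with TAP1, had 9.55, 7.52 and 5.99 CPM in stretched and 28.4, 29.2 and 28.2 CPM in unstretched IL-1 wells (-1.32 ± 0.23). Within the class, stretch with IL-1 lowered 15 of 16 members, and stretch without IL-1 lowered 4, beside 15.1% and 10.3% of all genes.

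**Figure D2:**
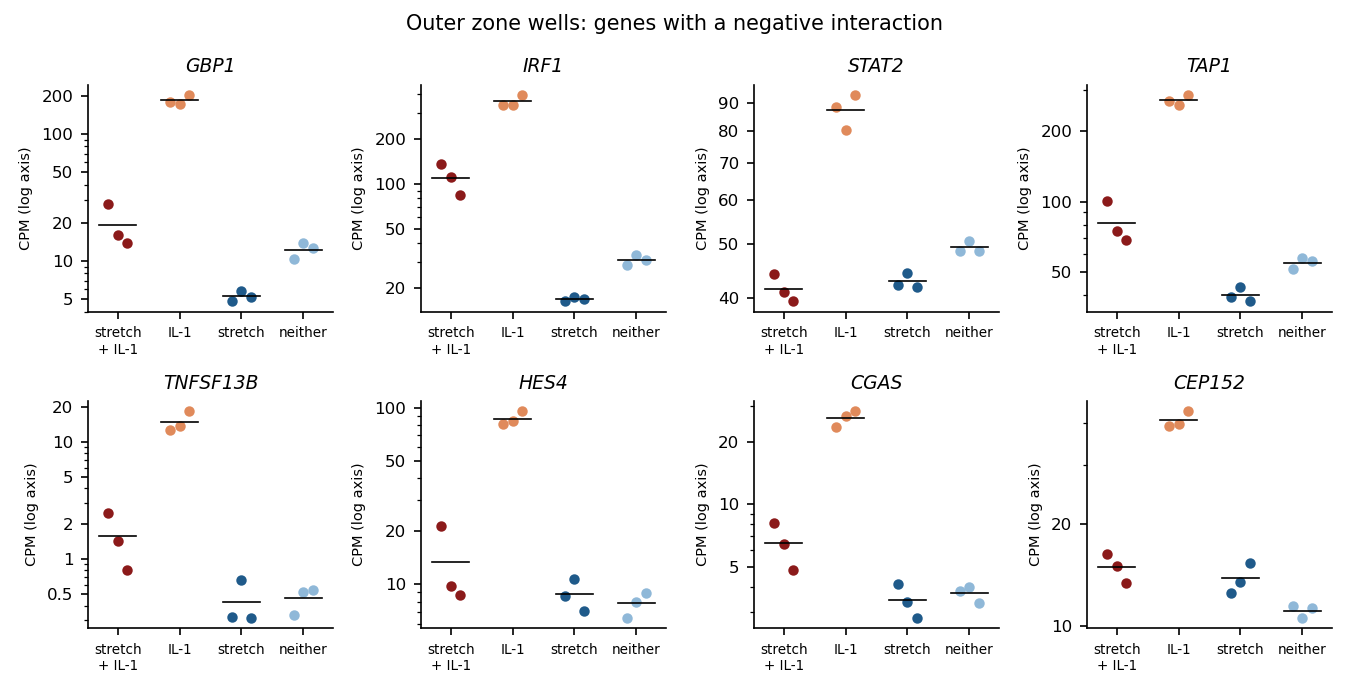
Expression in CPM (log axis) of 8 genes with a negative interaction in each outer zone well; points are wells 4, 5 and 6 from left to right and bars are group means. In all 8 genes the stretched IL-1 wells lie below the unstretched IL-1 wells, while without IL-1 the gap is smaller, absent or, in CEP152, reversed.

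Of the 10 genes named for the largest negative interactions, 7 were outside the interferon and MHC genes above, and in these stretch lowered the gene with IL-1 and passed no test without it. TNFSF13B, the B cell survival factor BAFF, stood at 2.46, 1.42 and 0.812 CPM in stretched and 12.5, 13.7 and 18.2 CPM in unstretched IL-1 wells, and at 0.316, 0.662 and 0.313 CPM in stretched and 0.334, 0.521 and 0.54 CPM in unstretched wells without IL-1. Its interaction was -3.11 ± 0.72 (adjusted p = 0.00565), and -2.68 ± 0.91 without stretched well 5 without IL-1, where the adjusted p was 0.0635. HES4, a transcriptional repressor of the Notch target family (chromosome 6, 63351593 to 63356690), had 21.5, 9.82 and 8.76 CPM in stretched and 80.6, 83.7 and 95.4 CPM in unstretched IL-1 wells, and 8.57, 10.7 and 7.05 CPM in stretched and 6.46, 7.97 and 8.97 CPM in unstretched wells without IL-1 (-2.85 ± 0.39, adjusted p = 7.61e-05). Stretched IL-1 wells of HES4 thus came within or near the range of wells without IL-1, although well 4 stayed above it. FOXS1, a forkhead transcription factor (-2.94 ± 0.36), PLEKHA7, a protein of adherens junctions (-2.97 ± 0.55), STEAP4, a metalloreductase (-2.54 ± 0.44), and TAGAP, a GTPase-activating protein (-2.05 ± 0.20), were among these 7. The seventh was LRRTM2, a neuronal adhesion protein (-1.85 ± 0.31). CEP152, a scaffold of centriole duplication (chromosome 1, 122876146 to 122979851), was among the genes with the lowest p. It stood at 16.4, 15.1 and 13.4 CPM in stretched and 39.1, 39.6 and 43.2 CPM in unstretched IL-1 wells, and at 12.6, 13.5 and 15.4 CPM in stretched and 11.4, 10.6 and 11.3 CPM in unstretched wells without IL-1, where stretch raised it (-1.76 ± 0.12, adjusted p = 1.64e-12). PAPD5, a non-canonical poly(A) polymerase, shared the low p (-1.39 ± 0.11, adjusted p = 1.32e-10).

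CXCL8, AMCF-II, AREG and EREG reached a negative interaction by another route, since stretch raised them without IL-1. With IL-1 it passed no test for the first 3 and lowered EREG. Of 23 NF-κB cytokines and chemokines, 6 were lower and 0 higher, beside 7.76% lower and 5.4% higher among all genes. The other 17 were not called, and the median interaction over the 23, called or not, was -0.91. With IL-1, stretch lowered 14 of the 23 and raised 2, beside 15.1% lowered and 13.1% raised among all genes. Without IL-1 it lowered 3 and raised 4, beside 10.3% and 11%. CXCL8, the neutrophil chemokine IL-8 (chromosome 8, 69932646 to 69935861), stood at 1033, 968 and 1092 CPM in stretched and 1044, 999 and 965 CPM in unstretched IL-1 wells, which overlap. Without IL-1 it stood at 12.1, 9.81 and 9.37 CPM in stretched and 4.31, 2.25 and 3.27 CPM in unstretched wells, which do not (-1.63 ± 0.27, adjusted p = 0.000517). As a difference in CPM rather than a ratio the interaction of CXCL8 was positive, at 21.5 CPM, beside levels with IL-1 that were far above those without. AMCF-II, a porcine CXC chemokine gene nearby (chromosome 8, 70008225 to 70010360), had 3716, 3658 and 3715 CPM in stretched and 4008, 3995 and 3941 CPM in unstretched wells with IL-1, and 406, 333 and 321 CPM in stretched and 172, 144 and 157 CPM in unstretched wells without IL-1 (-1.27 ± 0.14, adjusted p = 6.12e-06). IL15, a lymphocyte cytokine, did not share that pattern and passed with -4.62 ± 1.26 on at most 6 reads in any outer zone library, so that it met the minimum of 10 reads only through inner zone libraries, and its size cannot be read as a fold. The IL15 call was lost without stretched well 4 without IL-1 (-4.04 ± 1.38, adjusted p = 0.0542), and DESeq2 gave it no adjusted p. AREG (amphiregulin) and EREG (epiregulin) are ligands of the EGF receptor. AREG stood at 42.5, 42.5 and 43.9 CPM in stretched and 45.4, 45.3 and 43.1 CPM in unstretched IL-1 wells, and at 46.7, 26.5 and 35.5 CPM in stretched and 16.2, 13.8 and 15.2 CPM in unstretched wells without IL-1 (-1.32 ± 0.25, adjusted p = 0.00157). Stretch lowered EREG with IL-1 (-0.52 ± 0.11) and raised it without (0.84 ± 0.15), for an interaction of -1.36 ± 0.19. The family of EGF, FGF, VEGF, PDGF and HGF factors was divided, with 6 of 32 lower and 4 higher, among the higher FGFR2, a fibroblast growth factor receptor, at 37.2, 40.8 and 40.1 CPM in stretched and 23.9, 24.1 and 26 CPM in unstretched IL-1 wells (0.78 ± 0.10).

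Regulators of the IL-1 pathway had calls in both directions. Of 37 NF-κB subunits and feedback genes, 7 were lower, 2 higher and 28 not called, beside 7.76% lower and 5.4% higher among all genes. BCL3, an atypical IκB protein that acts in the nucleus (chromosome 6, 51256033 to 51264923), stood at 47.2, 42.7 and 45.6 CPM in stretched and 59, 58.6 and 56.4 CPM in unstretched IL-1 wells. Without IL-1 it stood at 8.07, 6.5 and 6.6 CPM in stretched and 31.2, 29.1 and 28.1 CPM in unstretched wells. Stretch lowered BCL3 in both conditions, with log2 effects of -0.36 with IL-1 and -2.06 without it, so that the interaction was positive (1.70 ± 0.11, adjusted p = 1.64e-12). ZC3H12A, the ribonuclease regnase-1, which degrades inflammatory mRNAs, stood at 176, 182 and 196 CPM in stretched and 191, 184 and 181 CPM in unstretched wells with IL-1, where the groups overlap, and at 12.3, 15 and 12.5 CPM in stretched and 23.3, 26.3 and 24.2 CPM in unstretched wells without IL-1 (0.89 ± 0.08, adjusted p = 2.2e-09). IRAK3, an inhibitory IRAK kinase, was among the lower (-0.68 ± 0.14). The list for prostaglandins and nitric oxide had 4 lower and 2 higher of 14: PTGS1, the constitutive cyclooxygenase, had -0.72 ± 0.13, PTGIS, prostacyclin synthase, had 0.56 ± 0.11, and GCH1, which makes the cofactor of nitric oxide synthases, had 0.57 ± 0.11. NOS2, the inducible nitric oxide synthase, stood at 84.3, 73.8 and 79.1 CPM in stretched and 133, 124 and 136 CPM in unstretched IL-1 wells, with at most 3 reads per library without IL-1, and its interaction of -0.81 ± 1.39 did not pass (adjusted p = 0.789).

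Most calls among MAP kinase feedback genes and genes of the actin cytoskeleton were positive. Of 21 genes listed as MAPK feedback, 9 were higher and 1 lower, beside 5.4% higher among all genes. Their median of 0.24 was the value of SPSB1, a listed adaptor for degradation of inducible nitric oxide synthase, which was not called. DUSP5, a phosphatase of nuclear ERK (chromosome 14, 120906340 to 120919398) and the promoter with 2 CArG boxes, stood at 239, 213 and 296 CPM in stretched and 183, 170.4 and 180.4 CPM in unstretched IL-1 wells. Without IL-1 it stood at 33.4, 46.3 and 31.4 CPM in stretched and 49.5, 55 and 50.8 CPM in unstretched wells, so stretch raised it with IL-1 and lowered it without (0.97 ± 0.17, adjusted p = 0.000859). ERRFI1, an inhibitor of the EGF receptor, had the same 2 directions, with 815, 732 and 989 CPM in stretched and 658, 657 and 634 CPM in unstretched wells with IL-1 and 93, 117 and 77.1 CPM in stretched and 132, 153 and 132 CPM in unstretched wells without IL-1 (0.92 ± 0.18). DUSP2, another dual-specificity phosphatase, had 0.88 ± 0.22.

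Of 36 SRF and actin cytoskeleton genes, 14 were higher and 1 lower, beside 5.4% higher among all genes. Their median was 0.15 (0.20 under upper-quartile factors). IL-1 alone lowered 25 of these 36 genes (33.5% of all genes). Stretch with IL-1 raised 19 of the 36 and lowered 1, beside 13.1% raised and 15.1% lowered among all genes. Stretch without IL-1 raised 5 and lowered 11, beside 11% and 10.3%. LMOD1, leiomodin, an actin nucleator of smooth muscle (chromosome 10, 24165293 to 24194823), stood at 15.6, 21.4 and 17.4 CPM in stretched and 11.2, 12 and 9.67 CPM in unstretched IL-1 wells, and at 38.4, 38.3 and 39 CPM in stretched and 57.3, 54.4 and 54.6 CPM in unstretched wells without IL-1. SYNPO2, an actin-bundling protein, stood at 21.8, 24.1 and 24.3 CPM in stretched and 13.5, 15.3 and 15.5 CPM in unstretched wells with IL-1 and at 65.9, 61.8 and 69.4 CPM in stretched and 89.8, 82.1 and 83.7 CPM in unstretched wells without IL-1. In both genes stretch raised the level with IL-1 and lowered it without, and none of these pairs of groups overlapped (1.25 ± 0.11 and 1.03 ± 0.09, adjusted p = 2.24e-09 and 1.15e-09). MYH11, the smooth muscle myosin heavy chain, was the lower member, at 17.5, 19.5 and 16.9 CPM in stretched and 29.6, 28.6 and 29.4 CPM in unstretched IL-1 wells (-0.92 ± 0.15). The summed level of the 36 genes was 22179, 22994 and 22863 CPM in stretched IL-1 wells and 22048, 21397 and 20539 CPM in unstretched IL-1 wells, which do not overlap. Without IL-1 it was 25443, 24949.7 and 24309 CPM in stretched and 25139, 25110.2 and 25521 CPM in unstretched wells, which do. Markers of mural and smooth muscle cells did not overlap either: the 12 summed to 1889 to 2172 CPM in stretched and 1606 to 1812 CPM in unstretched IL-1 wells, and to 2502 to 2653 CPM in stretched and 2456 to 2496 CPM in unstretched wells without IL-1, and their part in the result was not tested. The 3 of them with a called interaction were LMOD1, SYNPO2 and MYH11, which the actin list holds too.

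In lists of other mechanical and growth pathway targets, most members were not called, and calls were mostly higher. In the TGF-β and BMP list, 10 of 34 were higher, 1 was lower and 23 were not called, beside 5.4% higher and 7.76% lower among all genes. NOG, the BMP antagonist noggin, had 1.64, 2.15 and 1.83 CPM in stretched and 1.36, 0.935 and 0.882 CPM in unstretched IL-1 wells, against 3.99, 4.3 and 3.08 CPM in stretched and 5.42, 5.37 and 5.85 CPM in unstretched wells without IL-1 (1.38 ± 0.25). SNAI1, a transcriptional repressor of epithelial genes, stood at 40.7, 36.3 and 42.7 CPM in stretched and 53.5, 50.4 and 38.9 CPM in unstretched wells with IL-1, where the groups overlap, and at 42.7, 42.2 and 34.1 CPM in stretched and 88.5, 92.9 and 100.1 CPM in unstretched wells without IL-1, so its interaction of 1.0 ± 0.14 rests on a fall with stretch without IL-1. Of 29 YAP-TEAD targets, 9 were higher, 2 lower and 18 not called. That higher count was 6 to 9 when wells were left out in turn, and 6 in a fit of the 12 outer zone libraries alone. F3, tissue factor, the trigger of coagulation (chromosome 4, 122827018 to 122837673), stood at 180.1, 153 and 245 CPM in stretched and 103, 101 and 92.7 CPM in unstretched IL-1 wells, and at 24.9, 22.8 and 17.9 CPM in stretched and 38.6, 40.2 and 39.95 CPM in unstretched wells without IL-1, with opposite directions of the stretch effect and groups that did not overlap (1.83 ± 0.24, adjusted p = 3.88e-05). ARHGEF17, a guanine nucleotide exchange factor, had 0.65 ± 0.09, and NUAK2, a kinase of the AMPK family, went lower (-1.15 ± 0.20). Immediate-early genes were split, with 7 of 33 higher and 9 lower. KLF9, a zinc finger factor that responds to glucocorticoids, stood at 66.5, 60.8 and 64.8 CPM in stretched and 60.5, 66.1 and 73.1 CPM in unstretched IL-1 wells, which overlap, against 11.9, 13.4 and 14 CPM in stretched and 30.1, 32.5 and 29.7 CPM in unstretched wells without IL-1 (1.17 ± 0.09, adjusted p = 1.1e-10). The orphan nuclear receptor genes NR4A3 and NR4A2 were lower, at -1.15 ± 0.24 and -1.10 ± 0.16, where stretch raised NR4A3 without IL-1 and lowered NR4A2 with it. The higher count of immediate-early genes was 4 without unstretched well 6 without IL-1 and likewise 4 without stretched IL-1 well 6, and 11 under upper-quartile factors.

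**Figure D3:**
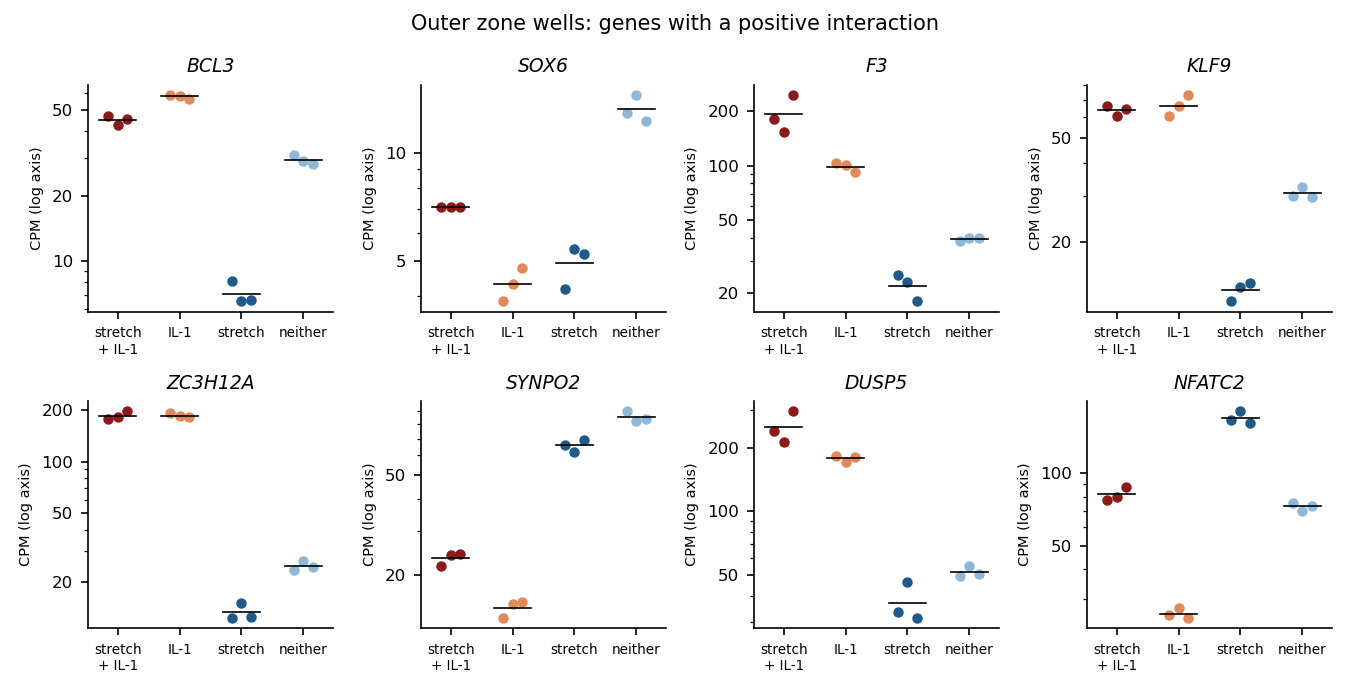
Expression in CPM (log axis) of 8 genes with a positive interaction in each outer zone well; points are wells 4, 5 and 6 from left to right and bars are group means. SOX6, F3, SYNPO2 and DUSP5 are higher in stretched than in unstretched IL-1 wells and lower in stretched than in unstretched wells without IL-1, whereas BCL3 is lower with stretch in both conditions and NFATC2 higher in both.

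SOX6, a transcription factor of chondrocytes (chromosome 2, 42447391 to 43068824), had the largest positive interaction among the 10 genes named for it. It stood at 7.06, 7.08 and 7.07 CPM in stretched and 3.86, 4.32 and 4.78 CPM in unstretched IL-1 wells, and at 4.18, 5.42 and 5.22 CPM in stretched and 12.9, 14.5 and 12.2 CPM in unstretched wells without IL-1 (2.12 ± 0.15, adjusted p = 7.13e-12). Its relative SOX5 was lowered by stretch in both conditions, at 41.7, 34 and 32.2 CPM in stretched and 48.3, 49.97 and 54.8 CPM in unstretched wells with IL-1 and 11, 11.3 and 10.9 CPM in stretched and 20.5, 22.9 and 21.3 CPM in unstretched wells without IL-1, with a positive log2 interaction (0.46 ± 0.12) and a negative difference in CPM (-4.54). COL11A1, a cartilage collagen chain, had 0.28 ± 0.05. These 3 were the called members among 11 chondrocyte-like markers, all higher, beside 5.4% higher among all genes. LMCD1, a LIM domain regulator of transcription (1.93 ± 0.31), TOX, an HMG-box transcription factor (1.93 ± 0.23), ZNF395, a zinc finger factor (1.41 ± 0.29), EFNA1, an ephrin ligand (1.88 ± 0.29), and FAM46C, a poly(A) polymerase (1.38 ± 0.33), were also among the 10. TOX stood at 2.01, 2.59 and 2.84 CPM in stretched and 0.72, 1.05 and 1.39 CPM in unstretched IL-1 wells, against 5.35, 5.12 and 5.32 CPM in stretched and 7.76, 8.07 and 9.96 CPM in unstretched wells without IL-1. DAB2, an endocytic adaptor protein, combined a moderate size with a low p: 90.2, 106 and 94 CPM in stretched and 63.8, 61.7 and 65.8 CPM in unstretched wells with IL-1 and 234, 257 and 256 CPM in stretched and 321, 339.5 and 333 CPM in unstretched wells without IL-1 (1.01 ± 0.07, adjusted p = 5.12e-12).

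Structural matrix genes had few calls. Of 45 of them, 2 were higher and 0 lower, beside 13.2% called among all genes: COL11A1 and THBS1, thrombospondin, an abundant matrix protein at 18858, 18967 and 21297 CPM in stretched and 15537, 14635 and 14078 CPM in unstretched IL-1 wells (0.50 ± 0.06). Among the 28 enzymes that degrade matrix, the split was 3 lower and 3 higher, and of 12 protease inhibitors 2 were lower and 1 higher. ADAMTS1, a protease of aggrecan and versican (chromosome 13, 190277175 to 190285957), was raised by stretch in both conditions, to 139, 145 and 159 CPM in stretched against 108, 101 and 113 CPM in unstretched IL-1 wells, and to 85, 112 and 88 CPM in stretched and 27.2, 29.4 and 26 CPM in unstretched wells without IL-1 (-1.33 ± 0.14, adjusted p = 2.14e-06). ADAMTS5, the main aggrecanase of mouse cartilage, was lowered by stretch with IL-1 (-0.40 ± 0.11) and raised without it (0.52 ± 0.13), for an interaction of -0.92 ± 0.17. PLAU, urokinase, a plasminogen activator, stood at 718, 614 and 829 CPM in stretched and 421, 398 and 347 CPM in unstretched IL-1 wells, and at 311, 371 and 284 CPM in stretched and 326, 349 and 339.7 CPM in unstretched wells without IL-1, where the groups overlap (0.96 ± 0.15). The protease inhibitors TIMP1 and TIMP3 had interactions of opposite sign, -0.47 ± 0.09 and 0.45 ± 0.10.

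**Figure D4:**
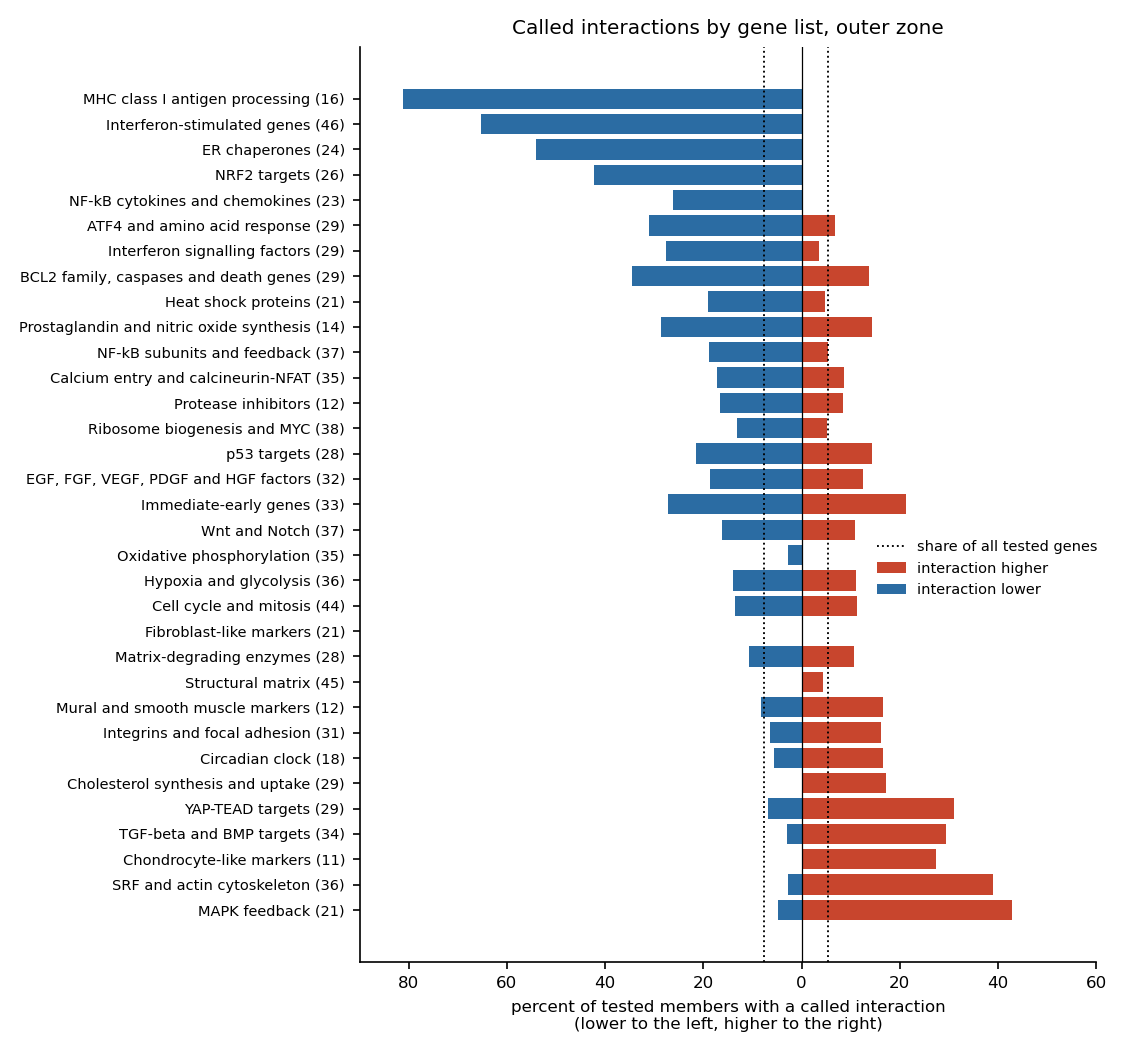
Share of the tested members of each gene list with a called interaction, in percent, lower interactions to the left and higher ones to the right; the number tested stands in parentheses and dotted lines mark the shares over all 13653 genes, 7.76% lower and 5.4% higher. MHC class I antigen processing (13 of 16 lower) and interferon-stimulated genes (30 of 46 lower) stand at one end and MAPK feedback (9 of 21 higher) at the other.

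Calls in the stress lists were mostly lower and small, and in 2 of the lists most members were not called. Of 24 ER chaperone genes, 13 were lower and 0 higher, beside 7.76% lower among all genes, with a median of -0.19. XBP1, the transcription factor of the unfolded protein response, stood at 231, 228 and 220.4 CPM in stretched and 280.1, 276 and 292 CPM in unstretched IL-1 wells, against 174, 179 and 174 CPM in stretched and 166, 162 and 168 CPM in unstretched wells without IL-1 (-0.41 ± 0.05, adjusted p = 8.64e-07). DNAJB9, an ER co-chaperone, had -0.45 ± 0.08. Under upper-quartile factors 9 ER chaperones were lower. Of 26 NRF2 targets of the oxidant response, 11 were lower and 0 higher, and 7 were lower under upper-quartile factors, without unstretched well 5 without IL-1 and without stretched well 4 without IL-1. SRXN1, sulfiredoxin, stood at 214, 195 and 225 CPM in stretched and 228, 241 and 226 CPM in unstretched wells with IL-1 and at 184, 184 and 175 CPM in stretched and 121, 123 and 120.1 CPM in unstretched wells without IL-1, where stretch raised it (-0.71 ± 0.06, adjusted p = 2.02e-10). ABCC1, an export pump for glutathione conjugates, was instead lowered by stretch with IL-1, at 372, 325 and 333 CPM in stretched and 566, 541 and 527 CPM in unstretched IL-1 wells (-0.71 ± 0.08). Of 29 ATF4 and amino acid response genes, 9 were lower and 2 higher, among the lower CHAC1, which degrades glutathione (-0.91 ± 0.13), and SLC7A11, the cystine transporter (-0.68 ± 0.11).

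Death genes were mixed, with 10 of 29 lower and 4 higher, beside 7.76% lower and 5.4% higher among all genes. PMAIP1 (NOXA), a BH3-only activator of cell death, had 80.8, 73 and 66 CPM in stretched and 118, 120.3 and 146 CPM in unstretched wells with IL-1 (-1.01 ± 0.12). Other BH3-only genes were on the positive side: BMF had 1.41 ± 0.26 and BBC3 (PUMA) 0.96 ± 0.28, both through a fall with stretch without IL-1. The BBC3 call was lost without unstretched IL-1 well 6 (0.80 ± 0.30, adjusted p = 0.0723) and without stretched IL-1 well 4 (0.90 ± 0.31, adjusted p = 0.0508). TIGAR, a p53 target that restrains glycolysis, was lower (-1.28 ± 0.16), as was MXD1, a partner of MAX that opposes MYC (-1.01 ± 0.24). MYC and MAX themselves were lower as well (-0.66 ± 0.11 and -0.36 ± 0.08).

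Calcium entry and calcineurin-NFAT genes were split, with 6 of 35 lower and 3 higher, beside 7.76% lower and 5.4% higher among all genes. NFATC2, a calcium-regulated transcription factor (chromosome 17, 52743570 to 52907373), stood at 77.6, 79.98 and 87.7 CPM in stretched and 25.9, 27.5 and 25.1 CPM in unstretched IL-1 wells, and at 167, 181 and 163 CPM in stretched and 75.2, 70.04 and 73.5 CPM in unstretched wells without IL-1. Stretch raised it in both conditions, with log2 effects of 1.65 and 1.22, and the ratio was larger with IL-1 (0.42 ± 0.08, adjusted p = 0.000378). As a difference in CPM the interaction was -41.6, so the direction of this interaction depends on the scale. RRAD, a small GTPase that inhibits calcium channels, stood at 40.6, 59.9 and 54 CPM in stretched and 8.75, 9.27 and 9.98 CPM in unstretched wells with IL-1 and 32.3, 36.7 and 32.8 CPM in stretched and 6.86, 7.58 and 7.77 CPM in unstretched wells without IL-1, and its interaction of 0.27 ± 0.21 did not pass (adjusted p = 0.485). RCAN1, an inhibitor of calcineurin, was lowered by stretch with IL-1, at 180.3, 132 and 171 CPM in stretched and 284, 293 and 322 CPM in unstretched IL-1 wells (-1.02 ± 0.12, adjusted p = 9.64e-06). Of the 8 genes picked for RT-qPCR, 4 were lower, among them IRF1 and STAT2, 1 was higher (NFATC2), and 3 did not pass. These genes were chosen on these samples and are not independent evidence.

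Genes that IL-1 changes can be read from the inner zone, whose libraries are separate from the 12 used here, although treatment codes are shared. Of 1149 genes that IL-1 raised more than 2-fold in unstretched inner zone cells (8.42% of genes), 445 (38.7%) had a lower outer zone interaction and 46 (4.0%) a higher one, with a median of -0.36. Of 999 genes that IL-1 lowered by as much there (7.32%), 12 (1.20%) had a lower and 174 (17.4%) a higher interaction, with a median of 0.27. Among the remaining 11505 genes, 602 (5.23%) were lower and 517 (4.49%) higher. Stretch with IL-1 had median effects of -0.33 on the raised and 0.21 on the lowered genes, and stretch without IL-1 had -0.01 and -0.05. By number, 602 of the 1059 lower calls were in neither class, which held 11505 of the 13653 tested genes. Its share of lower calls, 5.23%, was below the 7.76% of all genes. It also holds genes that IL-1 changed there by less than 2-fold.

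Lists with shares of calls near or below those of all genes include oxidative phosphorylation, with 1 of 35 lower, and fibroblast-like markers, with 0 of 21 called. Other lists had calls in both directions, beside 7.76% lower and 5.4% higher among all genes: cell cycle genes had 6 of 44 lower and 5 higher, hypoxia and glycolysis genes 5 of 36 and 4, Wnt and Notch genes 6 of 37 and 4, p53 targets 6 of 28 and 4, and ribosome biogenesis and MYC genes 5 of 38 and 2. Single wells moved some of these counts. The cell cycle list had 3 lower without stretched IL-1 well 6 or stretched well 6 without IL-1, and 2 higher without unstretched IL-1 well 6 or stretched well 5 without IL-1. Hypoxia and glycolysis had 0 higher without stretched IL-1 well 6, and 1 without unstretched well 5, unstretched well 6 or stretched well 6, each without IL-1. It had 2 higher without unstretched IL-1 well 5 or unstretched well 4 without IL-1. Without stretched well 5 without IL-1 the Wnt and Notch list had 9 higher, and without stretched IL-1 well 6 integrins had 3 higher. Under upper-quartile factors 7 hypoxia and glycolysis genes and 7 p53 targets were higher. Cholesterol genes had 5 of 29 higher and 0 lower, among them SREBF1, the transcription factor of lipid synthesis (0.30 ± 0.06). The clock list had 3 of 18 higher and 1 lower, integrins and focal adhesion 5 of 31 higher and 2 lower, and heat shock proteins 4 of 21 lower and 1 higher. Under upper-quartile factors 0 heat shock proteins were lower. The count was 1 without stretched IL-1 well 6, stretched well 4 without IL-1 or unstretched well 4 without IL-1, and 2 without stretched IL-1 well 5 or unstretched IL-1 well 4. The cholesterol list had 3 higher without stretched IL-1 well 6, without unstretched IL-1 well 5 and without stretched well 4 without IL-1.

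The inner zone gave the closest comparison, since its cells received the same treatments in separate wells. Of the 737 higher outer interactions, 710 (96.3%) had the same sign in the inner zone, and of the 1059 lower ones 1013 (95.7%), beside 70.8% of all tested genes. Of the 2 sets, 505 and 763 also passed in the inner zone, where 8.66% of genes were higher and 11% lower. Across the 1796 genes the Pearson correlation of the interactions of the zones was 0.845 and across all 13653 it was 0.452, as a description over genes that share treatment codes and a scaling. The difference between the zones was tested directly and passed in 51 genes (0.374%), 29 with the outer interaction above the inner (0.212%) and 22 below (0.161%). At an unadjusted p under 0.05 there were 1145. That count of 51 was 32 without unstretched well 6, 33 without stretched well 6, both without IL-1, and 78 without stretched IL-1 well 5.

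LRIG3, a transmembrane protein with leucine-rich repeats (chromosome 5, 24066611 to 24117971), differed between zones in sign. Its outer wells stood at 3.51, 3.25 and 3.69 CPM in stretched and 4.58, 5.02 and 4.62 CPM in unstretched IL-1 wells, and at 28.9, 33.5 and 30.8 CPM in stretched and 20.3, 22.6 and 23.2 CPM in unstretched wells without IL-1. The interaction was -0.93 ± 0.13 in the outer and 0.63 ± 0.12 in the inner zone, a difference of -1.56 ± 0.18 (adjusted p = 2.72e-06). TRIB3, a pseudokinase of the ATF4 response, was -0.68 ± 0.14 in the outer and -2.02 ± 0.14 in the inner zone (difference 1.34 ± 0.20). SPSB1, an adaptor that targets inducible nitric oxide synthase for degradation, had 0.24 ± 0.18 in the outer zone, which did not pass, and -1.14 ± 0.20 in the inner zone (difference 1.38 ± 0.27, adjusted p = 0.0248). RGS16, a regulator of G protein signalling, was lowered by stretch in both conditions in outer cells, -1.50 and -1.50, with an interaction of 0.00, against -1.22 ± 0.18 in the inner zone (difference 1.22 ± 0.28, adjusted p = 0.0416). Its outer level without IL-1 was low, with means of 0.994 CPM in stretched and 2.83 CPM in unstretched wells. BCL3 was higher in both zones, at 1.70 in the outer and 0.64 in the inner (difference 1.06 ± 0.17, adjusted p = 0.000822), and ADAMTS1 was -1.33 against -0.29 (difference -1.03 ± 0.20). ADM, adrenomedullin, a vasodilator peptide, was -0.58 in the outer and 0.13 in the inner zone (difference -0.71 ± 0.12).

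**Figure D5:**
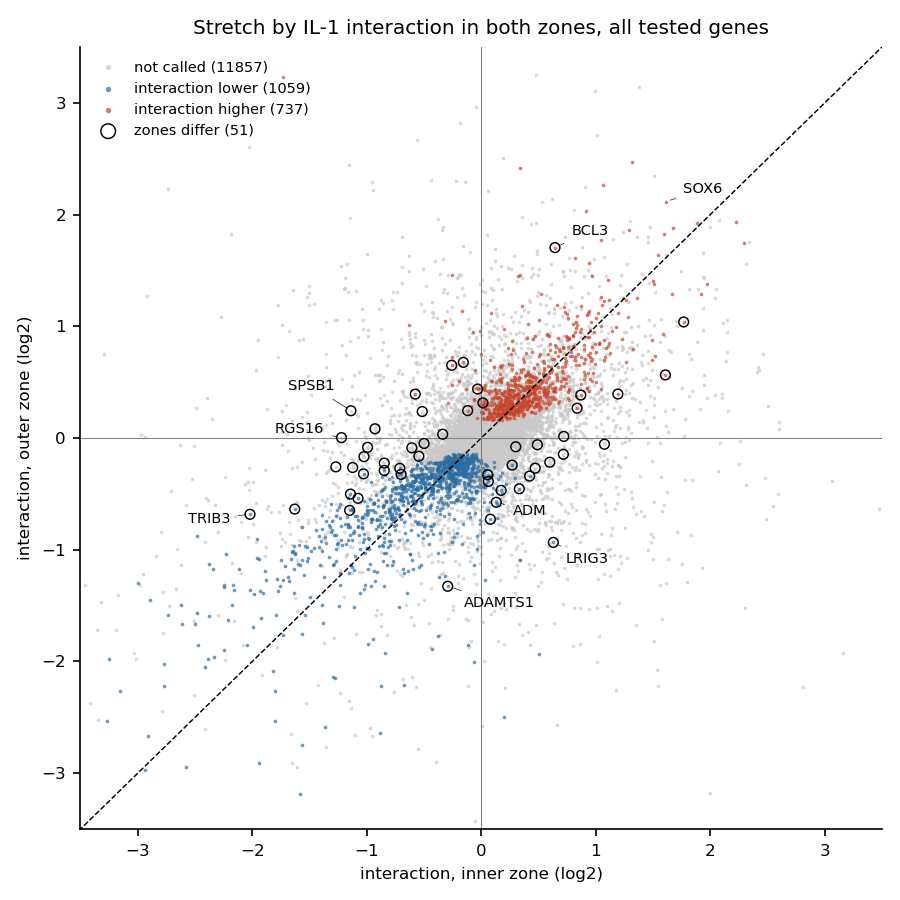
Stretch by IL-1 interaction in the outer zone (y axis, log2) against the inner zone (x axis, log2) for each tested gene, coloured by its call in the outer zone, with black circles around the 51 genes whose interaction differed between zones; 39 genes lie outside the axes. Called genes scatter about the dashed line of equal interactions, and LRIG3, TRIB3, SPSB1 and RGS16 lie away from it.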

How the data were processed

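The authors trimmed reads, aligned them to Sscrofa11.1 (STAR), kept those that mapped to a single place and compiled raw counts per gene with HTSeq, and the deposited table holds these whole-number counts. The second deposited table of normalized values was not used. The cell stretch experiment gave 24 libraries, 3 in each of 8 groups, with 27633199 to 35284474 reads in the outer zone, and 0 columns of values were left unmapped.

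Counts were fitted with edgeR 4.0.16 (R 4.3.3, limma 3.58.1) over all 24 libraries: TMM factors, 8 group means, robust quasi-likelihood F-tests (two-sided), and p-values adjusted by Benjamini-Hochberg across the 13653 genes that reached 10 reads somewhere. The threshold for a call was an adjusted p of 0.05. SE is the log2 value divided by the square root of F, and none is given for RGS16 in the outer zone, where the log2 value is too near 0 for it. The fit had 16 residual degrees of freedom and a common biological coefficient of variation of 0.0472, and no pair of replicates was a duplicate (chi-square over its degrees of freedom 2.67 to 9.55). CPM are TMM-scaled. Alternatives were RLE and upper-quartile factors, DESeq2 1.42.0, other filters, the outer zone libraries alone, a block by well, and leaving out each well.

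Symbols came with the counts for 11654 tested genes and from a separate reference of gene names for 809, and 1190 had none. Coordinates and promoters come from RefSeq's annotation of Sscrofa11.1, not the release used for counting, and 11763 tested genes matched. Named genes follow a rule: the 8 RT-qPCR genes, the 10 largest interactions in each direction with at least 5 CPM in the highest group and groups without overlap in 1 condition, the 6 lowest p, up to 3 per list, and up to 5 zone differences. Some named genes are not reported here. Members and lists were chosen with earlier results of these data known. No set test was run, and the pipeline was tested on simulated data.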

Additional observations from a re-analysis of the deposited data

Results flagged for a closer look

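The stretch by IL-1 interaction differed between the outer and the inner zone in 51 genes by a test of the difference itself (edgeR quasi-likelihood F-test, adjusted p under 0.05). The outer minus inner difference on the log2 scale was -1.56 for LRIG3, -1.03 for ADAMTS1 and -0.71 for ADM, where the outer value was below the inner. It was 1.38 for SPSB1, 1.34 for TRIB3, 1.22 for RGS16 and 1.06 for BCL3, where the outer value was above the inner.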

How the results depend on the processing

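The interaction count of 1796 ranged from 1517 to 1832 when wells were left out in turn, stretch with IL-1 from 3176 to 3922, stretch without IL-1 from 2176 to 3062, and the zone difference from 32 to 78. A stricter adjusted p of 0.01 left 1090 interactions, and a bound of 1 on the log2 scale left 213. DESeq2 called 88 zone differences in place of 51. As differences in CPM the interaction turned sign in 13 of the higher and 16 of the lower genes, among them NFATC2 (-41.6), CXCL8 (21.5), SOX5 (-4.54) and TRIB3 (2.47), which follows from the change of scale. A replicate block by well gave 1749 calls (732 higher, 1017 lower), 1686 of them shared with the 1796. Wells with the same number did not deviate together between treatments, with correlations of -0.205 to 0.284 (median -0.0887) against -0.350 to 0.289 for wells with different numbers, so the numbers were not taken as pairs. Upper-quartile factors gave 1081 higher and 823 lower calls, RLE 712 and 1088, DESeq2 728 and 1122, the outer zone libraries alone 588 and 942, and no filter on low counts 661 and 1017. Of the 113 named genes, 19 lost their call in 1 or more of these fits, and 10 in 4 or more. Reads without IL-1 were few for NOS2 (at most 3 per library) and CXCL10 (at most 51), with SEs of 1.39 and 1.38 on the log2 scale. The causes of these shifts were not tested unless stated.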
